A study of Mus musculus with 12 samples.

Results

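The liver makes most of the circulating proteins of complement and of blood coagulation, and 37 of their genes were followed here over a day in mouse liver without cryptochromes. The genes were chosen by symbol from a table of 22618 genes, 16 of them as complement genes and 21 as coagulation genes. All 37 were in the table and all passed the filter on low counts, which 17142 genes passed in all. Every mouse was a male Cry1/2 DKO on the C57BL/6j strain, aged 12 to 16 weeks, raised with a conventional gut microbiome and fed at night. The DKO lacks both cryptochromes, which in the circadian clock repress transcription driven by CLOCK and BMAL1. Livers were taken every 4 h at zeitgeber times (ZT) 2, 6, 10, 14, 18 and 22, with 2 libraries a time, so that 6 libraries fell in the night (ZT14, ZT18 and ZT22) and 6 in the day (ZT02, ZT06 and ZT10). The double knockout and the night feeding are shared by all 12 libraries. Wild-type mice were not analysed here, so no value below measures an effect of either one. The labels do not say whether the libraries come from separate mice or from pools, so p-values cover the spread among libraries, which may be technical.

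Complement is a cascade of plasma proteins that marks microbes and injured cells. It is started by antibody through C1, by mannose-binding lectins through the MASP proteases, or by the alternative pathway through factor B, and each route ends in cleavage of C3. Downstream of C3 and C5, the terminal proteins C5b, C6, C7, C8 and C9 build a pore in the target membrane. Coagulation is a chain of proteases that ends in thrombin, which turns fibrinogen into fibrin. Antithrombin, heparin cofactor II and protein C hold it in check, and plasmin later dissolves the clot. Several of these proteins, fibrinogen among them, are also acute-phase proteins, which hepatocytes make in larger amounts during inflammation.

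Libraries held between 34715506 and 46074052 exon counts. The smallest count of any of the 37 genes in any library was 1241 (F11) and the largest was 433277 (C3), so counting error was small beside the spread between libraries. The 37 genes together took between 3.58% and 5.16% of all counts. Cry1 had between 202 and 544 counts a library and Cry2 between 462 and 819. Gene counts do not show which exons these came from, so they do not check the genotype. The hepatocyte marker albumin (Alb) was at 57720 to 89790 CPM, the count scaled to the size of the library with TMM factors, and transthyretin (Ttr) at 3254 to 5086 CPM. In whole liver, fewer cells of a type and less RNA per cell cannot be told apart. The 7 hepatocyte markers summed to 75240 to 84150 CPM in night libraries and 81420 to 110300 CPM in day libraries, mostly from Alb. As a mean of log2 CPM centred on each gene's own mean, they ran from -0.07 to 0.09 at night and -0.22 to 0.21 by day. Kupffer cells are the resident macrophages of the liver. Their 7 measured markers summed to 245 to 395 CPM at night and 293 to 451 CPM by day. The part of either cell type in the night-day differences below was not tested.

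Levels per kilobase, over the union of each gene's exons, spanned more than 2 orders of magnitude. C3, the protein on which all 3 complement routes converge, stood highest at 1730 ± 188 CPM per kilobase (SD, n = 12). The fibrinogen chains followed: Fga at 1468 ± 281, Fgg at 1451 ± 288 and Fgb at 1079 ± 198 CPM per kilobase. Neighbours in this order differed by less than the sum of their SDs. Vtn (vitronectin, a plasma and matrix protein) was at 952 ± 75.1, Kng1 (kininogen, the source of bradykinin) at 694 ± 70.2, Cfb (complement factor B) at 562 ± 57.7 and Plg (plasminogen) at 537 ± 35.0 CPM per kilobase. At the low end were F7 (factor VII) at 45.4 ± 4.03, F11 (factor XI) at 21.2 ± 4.44, Pros1 (protein S) at 20.7 ± 2.48 and Masp1 (a protease of the lectin pathway) at 7.40 ± 0.743 CPM per kilobase. F11 and Pros1 differed by less than their SDs, and Masp1 lay below every other member. Part of this order depends on the length used. With the longest transcript in place of the exon union, Fgg (1745 CPM per kilobase) stood above C3 (1732) and Fga (1708), and F11 (21.2) below Pros1 (25.7). Masp1 was then at 13.6, still the lowest, and C4bp at 122, Serpinc1 at 356 and Proc at 235 CPM per kilobase, against 69.8, 207 and 149.6 with the union.

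**Figure D1:**
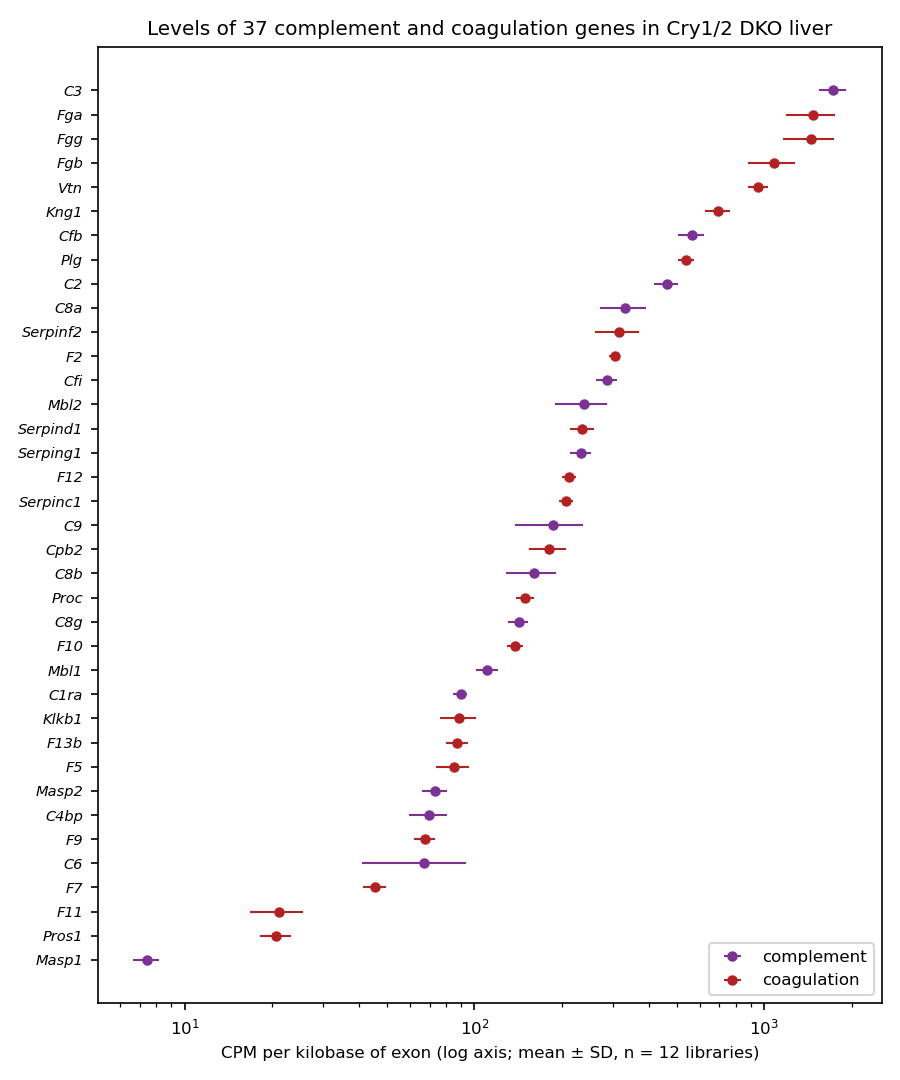
Level of each of the 37 genes, in CPM per kilobase of exon on a log axis, as the mean over 12 libraries with the SD as a bar. Complement genes (purple) and coagulation genes (red) are interleaved, from C3 at 1730 to Masp1 at 7.40 CPM per kilobase, and C6 has the widest bar of the low-level genes.

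Masp1 and Pros1, the 2 lowest per kilobase of exon union, passed no test in edgeR. Masp1 had, in CPM, at ZT02 86.3 and 72.4, at ZT06 81.0 and 70.8, at ZT10 59.5 and 64.7, at ZT14 72.8 and 67.7, at ZT18 71.8 and 71.0, at ZT22 74.5 and 80.5. Pros1, the cofactor of activated protein C, had, in CPM, at ZT02 79.7 and 94.8, at ZT06 74.5 and 94.5, at ZT10 87.6 and 103, at ZT14 87.9 and 85.7, at ZT18 73.7 and 74.2, at ZT22 71.4 and 90.0. Night and day libraries overlapped for both genes, and neither passed the 24 h test below (edgeR adjusted p = 0.137 for Masp1 and 0.321 for Pros1). The rows of C2, Cfb and C1ra may carry reads of other genes. C2 lies next to Cfb on chromosome 17, and its row matched that of Gm20547, a gene that spans both, to a ratio of 0.99977 to 1, while the Cfb row held 0.871 to 0.903 of its counts. C2 minus Cfb left 206 ± 11.2 CPM at night and 188 ± 19.1 CPM by day (SD, n = 6 each). This subtraction assumes that every Cfb read was also counted for C2, which cannot be checked here. The C2 level printed from its own row may thus be mostly reads counted over Cfb as well. The near copy of C1ra, C1rb, has no row, so the C1ra row may hold reads of both. The strand setting of the counting is not given in the sources used here, so reads of genes that overlap Masp1, Masp2, C8a, C8g, F5, Fgg, Plg, Serpinc1 and Serpind1 on the opposite strand cannot be told apart from theirs. Cpb2, F5 and Serpinc1 also overlap predicted genes on their own strand.

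Of the 37 genes, 6 passed a test for a 24 h rhythm. In that edgeR test 15 had an unadjusted p under 0.05, as did 5407 of 17142 tested genes. A 24 h cosine fitted to each of the 17142 genes (edgeR quasi-likelihood test, Benjamini-Hochberg adjusted p under 0.05) passed for 6 members, or 16.2%, against 12.0% of all tested genes and 15.3% of the 1367 genes that averaged 100 CPM or more. The 6 were Mbl2, C8b and C9 among 16 complement genes (18.8%) and F11, Klkb1 and Cpb2 among 21 coagulation genes (14.3%). These shares are near the share of all genes. Their fitted peaks fell into 2 parts of the day: C8b, C9, Cpb2 and F11 between ZT 19.2 and ZT 22.2, and Mbl2 and Klkb1 at ZT 6.18 and ZT 5.20. A test for any difference among the 6 times passed for Mbl2 (adjusted p = 0.0443) and C8b (adjusted p = 0.0253), and for 4.82% of all tested genes. In that test 0 coagulation genes passed with edgeR, with 6 passing in DESeq2 and 0 in limma-voom. An unadjusted p under 0.05 was reached there in edgeR by 7 coagulation genes and by 4248 of 17142 tested genes. The count of 6 in the 24 h test was 3 without ZT18 replicate 1 (C8b, F11 and Cpb2), and 11 in DESeq2. The any-time calls of Mbl2 and C8b both ended without either ZT18 library or replicate 1 of ZT14 or ZT22. Leaving out any other single library ended 1 of the 2. Without ZT06 replicate 1 this was C8b, and the coagulation gene F11 passed in its place.

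**Figure D2:**
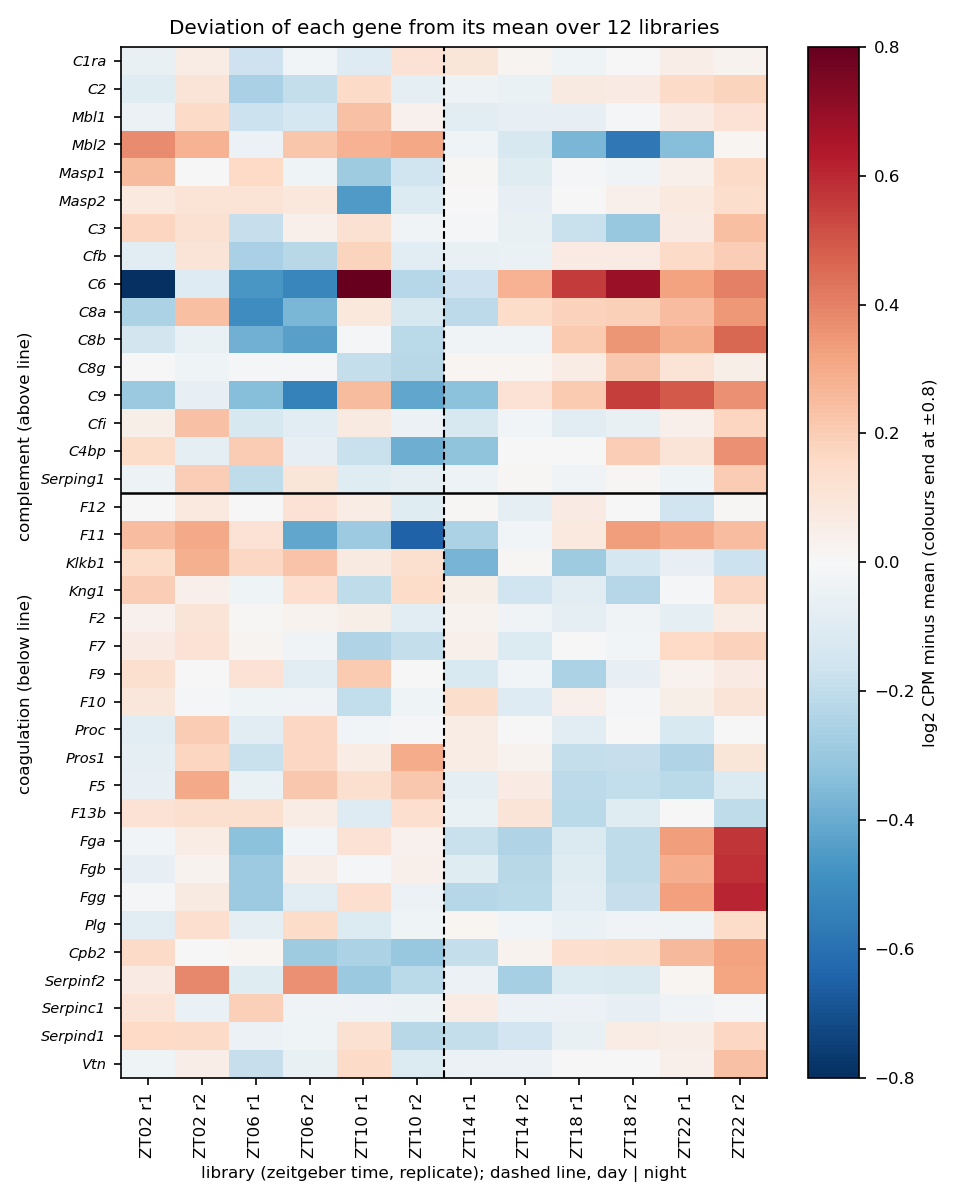
Centred log2 CPM of the 37 genes (rows, grouped by set and role) in the 12 libraries (columns, ordered by zeitgeber time), where 0 is the gene's own mean and colours end at ±0.8. C8b and C9 are high at ZT18 and ZT22, and the fibrinogen chains are high in both ZT22 libraries. Klkb1 is high in the day libraries, and Mbl2 in all of them except ZT06 replicate 1.

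C8b and C9 of the terminal pathway rose at night. All 5 terminal genes had a positive night-minus-day difference on the log2 scale under every alternative run, and C8b and C9 passed that test. Of the 37 genes, 4 passed it in either direction, against 9.70% of all tested genes. The higher direction was taken by 2 of them, against 4.80% of all tested genes and 5.19% of those at 100 CPM or more. C8b (ENSMUSG00000029656, chr4:104766317-104804548, plus strand, mm10) encodes the beta chain of C8, which binds C5b-7 on the membrane. C8b had, in CPM, at ZT02 361 and 387, at ZT06 306 and 296, at ZT10 398 and 344, at ZT14 392 and 393, at ZT18 463 and 511, at ZT22 487 and 550.3. Both ZT18 and both ZT22 libraries were above every day library, while the ZT14 libraries lay within the day range. C8b averaged 466 ± 63.9 CPM at night and 349 ± 41.5 CPM by day (SD, n = 6 each). The night-minus-day log2 difference was 0.41 ± 0.0697 (SE) or 1.33-fold, with an edgeR adjusted p of 0.00705. The fitted 24 h range, the peak over the trough of the cosine, was 1.61-fold (95% confidence interval 1.36 to 1.91) and the cosine peaked at ZT 19.4 ± 0.606 h (SE) (edgeR adjusted p = 0.00809). C8b passed both tests under every alternative run, with adjusted p up to 0.0460 and 0.0343.

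C9 (ENSMUSG00000022149, chr15:6445327-6498751, plus strand) encodes the subunit that polymerises to form the pore wall. C9 had, in CPM, at ZT02 378 and 442, at ZT06 366 and 319, at ZT10 553 and 347, at ZT14 369 and 502, at ZT18 535 and 680.3, at ZT22 650.1 and 597. The day library ZT10 replicate 1 was above both ZT14 libraries and ZT18 replicate 1, so the groups overlapped. C9 averaged 556 ± 114 CPM at night and 401 ± 85.1 CPM by day (SD, n = 6 each). The night-minus-day log2 difference was 0.46 ± 0.129 (SE), with an edgeR adjusted p of 0.0479. Its range was 1.72-fold (95% confidence interval 1.22 to 2.44) with the peak at ZT 19.2 ± 1.08 h (SE) (edgeR adjusted p = 0.0478). The 24 h call was kept only without ZT10 replicate 1 or ZT14 replicate 1 and ended without any 1 of the other 10 libraries (adjusted p 0.0692 to 0.128), and the night call was kept only without ZT10 replicate 1 (adjusted p 0.0568 to 0.138 without another).

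The other 3 terminal genes did not pass in edgeR with all 12 libraries. C6, which joins C5b to open the terminal complex, had, in CPM, at ZT02 71.2 and 204, at ZT06 158 and 153, at ZT10 396 and 187, at ZT14 195 and 266, at ZT18 322 and 353, at ZT22 274 and 289.5. ZT02 replicate 1 was the lowest and ZT10 replicate 1 the highest of the 12, so the day libraries enclosed the whole night range. C6 had the widest fitted range of the members, 2.27-fold (95% confidence interval 1.08 to 4.73), but this did not pass (edgeR adjusted p = 0.154), nor did its log2 night difference of 0.61 ± 0.241 (SE) (adjusted p = 0.137). C6 passed the 24 h test without ZT10 replicate 1 and the night test without ZT02 replicate 2 (C6 adjusted p down to 0.0450 and 0.0241 over all alternatives).

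C8a, the alpha chain of C8 and the neighbour of C8b on chromosome 4, had, in CPM, at ZT02 995 and 1402, at ZT06 840.2 and 920.2, at ZT10 1255 and 1084, at ZT14 1026 and 1310, at ZT18 1347 and 1354, at ZT22 1407 and 1508. Both ZT22 libraries were above the other 10, and night and day overlapped through ZT02 replicate 2 and both ZT10 libraries. Its log2 night difference was 0.30 ± 0.103 (SE) (edgeR adjusted p = 0.0912). In DESeq2 C8a passed the 24 h test (adjusted p = 0.0305), the any-time test and the night test (0.0348), and in edgeR the 24 h test without ZT10 replicate 1 (0.0376) and the night test without ZT02 replicate 2 (0.0477). C8g, the gamma chain, had, in CPM, at ZT02 212 and 206, at ZT06 209 and 210.2, at ZT10 185 and 182, at ZT14 214 and 214, at ZT18 220.5 and 246, at ZT22 228 and 219. Every night library of C8g was above every day library, which held for 1.60% of all tested genes, yet the gap was narrow: the log2 difference was 0.16 ± 0.0577 (SE) (edgeR adjusted p = 0.110). C8g passed the 24 h test in DESeq2 (adjusted p = 0.0472). C8a and C8b peaked at the same fitted time, ZT 19.4, and C8g at ZT 20.4.

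The bases upstream of C8b and C9 are shown because these 2 genes rose together at night. They are the plus strand of the RefSeq promoter windows (GRCm38.p6), 5′ to 3′, cut to the bases upstream of both the RefSeq and the GENCODE start. Capitals mark a match to a motif searched on both strands: an HNF1 half-site, GTTAAT, in C8b and a C/EBP site, TTGCNNAA, in C9.
C8b (chr4:104766067-104766316, plus strand): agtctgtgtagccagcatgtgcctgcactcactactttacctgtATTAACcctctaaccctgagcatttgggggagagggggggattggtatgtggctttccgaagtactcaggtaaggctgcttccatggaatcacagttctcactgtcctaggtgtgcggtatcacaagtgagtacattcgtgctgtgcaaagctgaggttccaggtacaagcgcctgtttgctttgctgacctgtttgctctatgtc
C9 (chr15:6445096-6445326, plus strand): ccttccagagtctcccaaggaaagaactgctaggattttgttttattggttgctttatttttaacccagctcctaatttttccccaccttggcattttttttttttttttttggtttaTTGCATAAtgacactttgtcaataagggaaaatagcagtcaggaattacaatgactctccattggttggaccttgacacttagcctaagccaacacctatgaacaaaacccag
Of 32851 RefSeq promoter windows, 7.10% held the HNF1 half-site and 10.8% the C/EBP site, so a match in 1 window is a description of its letters. Neither window held the E-box CACGTG, to which CLOCK and BMAL1 bind, nor the D-box TTATGTAA. None of the 29 members that have a RefSeq window did, against 7.15% and 0.938% of all windows. A window reaches only 250 bases upstream of the RefSeq start. Sites farther away were not searched, and a shortage of these motifs was not tested.

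Among the genes that start complement, Mbl2 fell at night. Mbl2 (ENSMUSG00000024863, chr19:30232942-30239687, plus strand) encodes a mannose-binding lectin, which recognises sugars on microbes and carries the MASP proteases. Mbl2 had, in CPM, at ZT02 329.7 and 308, at ZT06 246 and 297, at ZT10 308 and 315, at ZT14 249 and 233, at ZT18 197 and 171, at ZT22 200.2 and 257. The ZT18 libraries and ZT22 replicate 1 were the 3 lowest, and the groups overlapped only because ZT06 replicate 1 was below ZT14 replicate 1 and ZT22 replicate 2. Mbl2 averaged 218 ± 33.7 CPM at night and 301 ± 28.9 CPM by day (SD, n = 6 each). The night-minus-day log2 difference was -0.47 ± 0.0839 (SE), with an edgeR adjusted p of 0.00878. The lower direction was taken by 2 of the 37 genes, Mbl2 and Klkb1, against 4.89% of all tested genes and 8.63% of those at 100 CPM or more. Its range was 1.58-fold (95% confidence interval 1.21 to 2.06), with the peak at ZT 6.18 ± 0.981 h (SE) (edgeR adjusted p = 0.0348). The night call of Mbl2 held under every alternative, with an adjusted p of at most 0.0404. Its 24 h call was kept without ZT22 replicate 2 or replicate 1 of ZT06, ZT10 or ZT14 and ended without any of the other 8 libraries (adjusted p 0.0524 to 0.106).

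Upstream of Mbl2 the window is shown beside those of C8b and C9 because Mbl2 moved the opposite way. No searched motif was found in these letters, which run 5′ to 3′ as above.
Mbl2 (chr19:30232678-30232927, plus strand): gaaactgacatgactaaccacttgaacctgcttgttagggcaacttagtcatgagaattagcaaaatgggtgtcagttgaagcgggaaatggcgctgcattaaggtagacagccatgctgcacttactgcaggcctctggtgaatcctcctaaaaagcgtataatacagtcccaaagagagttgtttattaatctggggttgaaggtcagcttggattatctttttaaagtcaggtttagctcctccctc

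The other lectin-pathway genes passed no test in edgeR. Mbl1, the second mouse mannose-binding lectin, was at 163 to 188 CPM at night and 154 to 204 CPM by day and averaged 172 ± 9.98 CPM at night and 175 ± 19.8 CPM by day (SD, n = 6 each). The Mbl1 groups overlapped, and its fitted range was 1.04-fold (95% confidence interval 0.874 to 1.23), the narrowest of the 37 (edgeR adjusted p = 0.945). Masp2, the protease that cleaves C4 and C2, was at 229.9 to 266 CPM at night and 176 to 259.9 CPM by day, with ZT10 replicate 1 the lowest library. Its 24 h fit did not pass (edgeR adjusted p = 0.165), and its log2 night difference was 0.06 ± 0.0697 (SE).

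**Figure D3:**
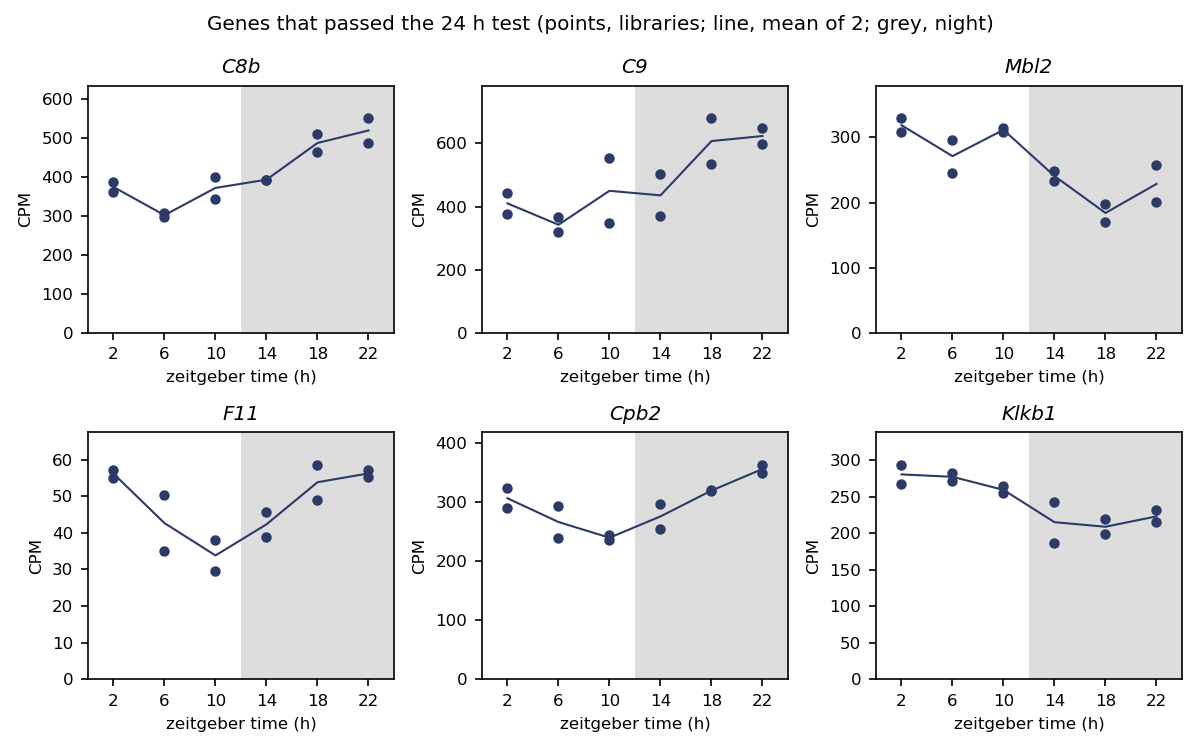
CPM of the 6 genes that passed the 24 h test against zeitgeber time in hours. Points are libraries, the line joins the means of 2, and grey marks the night. C8b and C9 are high at ZT18 and ZT22, F11 and Cpb2 are low at ZT10, and Mbl2 and Klkb1 are lower at night.

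C3 and the genes of the classical and alternative routes passed no test in edgeR. C3 had, in CPM, at ZT02 9952 and 9642, at ZT06 7800 and 9090, at ZT10 9615 and 8659, at ZT14 8792 and 8499, at ZT18 7834 and 7170, at ZT22 9269 and 10440. ZT18 replicate 2 was the lowest and ZT22 replicate 2 the highest, so both ends of the range were night libraries. C3 averaged 8667 ± 1137 CPM at night and 9126 ± 796 CPM by day (SD, n = 6 each) (log2 difference -0.08 ± 0.0865 (SE), edgeR adjusted p = 0.594). Cfb, the protease of the alternative pathway, was at 1516 to 1810 CPM at night and 1322 to 1785 CPM by day (log2 difference 0.12 ± 0.0756 (SE), edgeR adjusted p = 0.341). C2, whose row may mostly be shared with Cfb, was at 1710 to 2008 CPM at night and 1484 to 1976 CPM by day. C1ra, a protease of the C1 complex, averaged 272 ± 8.56 CPM at night and 262 ± 19.1 CPM by day (SD, n = 6 each). Each of these had overlapping groups.

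The 3 fluid-phase regulators did not pass in edgeR with all 12 libraries. C4bp, which binds C4b and is a cofactor of factor I, was at 372 to 599 CPM at night and 355 to 536 CPM by day (24 h edgeR adjusted p = 0.104). C4bp passed that test in DESeq2 (adjusted p = 0.0498) and in edgeR without ZT02 replicate 2 and ZT06 replicate 1 (0.0473). Cfi, factor I, which cleaves C3b and C4b, was at 579 to 712 CPM at night and 579.7 to 743 CPM by day (adjusted p = 0.395). Serping1, the C1 inhibitor, which also inhibits factor XII and plasma kallikrein, was at 524 to 621 CPM at night and 469 to 619 CPM by day (adjusted p = 0.464). All 3 had overlapping night and day libraries.

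In the contact phase, 2 neighbouring genes passed the 24 h test with fitted peaks at different times. F11 and Klkb1 lie on the minus strand of chromosome 8 as neighbours, and their proteins, factor XI and plasma prekallikrein, are homologous and both circulate bound to kininogen. F11 (ENSMUSG00000031645, chr8:45241174-45262031, minus strand) had, in CPM, at ZT02 55.1 and 57.2, at ZT06 50.4 and 34.9, at ZT10 37.9 and 29.7, at ZT14 38.9 and 45.7, at ZT18 49.0 and 58.6, at ZT22 57.2 and 55.2. Both ZT10 libraries and ZT06 replicate 2 were the 3 lowest, and the high values ran across ZT18, ZT22 and ZT02, so night and day overlapped. Its fitted range was 1.69-fold (95% confidence interval 1.32 to 2.15), with the peak at ZT 22.2 ± 0.788 h (SE) (edgeR adjusted p = 0.0166), and the call held under every alternative (adjusted p up to 0.0499).

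Klkb1 (ENSMUSG00000031640, chr8:45269671-45308466, minus strand) had, in CPM, at ZT02 267 and 294, at ZT06 272 and 283, at ZT10 254 and 264, at ZT14 187 and 243, at ZT18 198 and 219, at ZT22 231 and 215. Every night library was below every day library, which held for 2.10% of all tested genes. Klkb1 averaged 216 ± 20.7 CPM at night and 272 ± 14.04 CPM by day (SD, n = 6 each). The night-minus-day log2 difference was -0.34 ± 0.0775 (SE), with an edgeR adjusted p of 0.0237. Its fitted range was 1.40-fold (95% confidence interval 1.21 to 1.62), with the peak at ZT 5.20 ± 0.724 h (SE) (edgeR adjusted p = 0.0229). Without ZT18 replicate 1 the adjusted p was 0.0664 in the 24 h test and 0.0865 in the night test. The night call also ended without ZT02 replicate 2, ZT14 replicate 1, ZT18 replicate 2 or either ZT22 library (adjusted p 0.0541 to 0.0713), and a same-strand overlap with Cyp4v3 and a second Klkb1 model leaves the source of part of its reads uncertain. The other contact genes passed no test in edgeR: F12 (factor XII, which starts contact activation) was at 372 to 434 CPM at night and 388 to 449.6 CPM by day and Kng1 at 1915 to 2517 CPM at night and 1946 to 2574 CPM by day, with adjusted p of 0.860 and 0.382 in the 24 h test (edgeR).

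None of the 6 vitamin K-dependent genes passed a test in edgeR with all 12 libraries. These proteins need carboxylated glutamate to bind calcium and membranes. In the 24 h test 0 of 6 passed in edgeR, 1 (F7) had an unadjusted p under 0.05, and F7 passed in DESeq2, in limma-voom, and in edgeR with RLE factors or without ZT14 replicate 1 (adjusted p 0.00617 to 0.0498). F7, which with tissue factor starts clotting, had, in CPM, at ZT02 87.9 and 91.2, at ZT06 85.5 and 82.4, at ZT10 71.3 and 73.6, at ZT14 86.4 and 78.0, at ZT18 84.3 and 82.9, at ZT22 94.0 and 95.8. Both ZT22 libraries were the highest of the 12 and both ZT10 libraries the lowest. Its fitted range was 1.24-fold (95% confidence interval 1.13 to 1.35) with the peak at ZT 22.9 ± 0.715 h (SE) (edgeR adjusted p = 0.0527). F2 (prothrombin) was at 1326 to 1458 CPM at night and 1313 to 1502 CPM by day, and F10 (factor X, which activates it) at 349.9 to 415 CPM at night and 327 to 400.4 CPM by day. F9 (factor IX, missing in haemophilia B) was at 154 to 192 CPM at night and 174 to 212 CPM by day, and Proc (protein C, which inactivates factors V and VIII) at 339.8 to 386 CPM at night and 348 to 426 CPM by day. In each of these 4 genes the groups overlapped, with 24 h adjusted p of 0.766 for F2, 0.470 for F10, 0.370 for F9 and 0.799 for Proc (edgeR).

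F5 and F13b both had lower night means and did not pass in edgeR with all 12 libraries. F5 is the cofactor of factor Xa, and F13b the carrier subunit of factor XIII, which cross-links fibrin. F5 was at 537 to 653 CPM at night and 597 to 770.4 CPM by day and averaged 575 ± 44.4 CPM at night and 684 ± 71.0 CPM by day (SD, n = 6 each). Its groups overlapped, and the log2 difference was -0.25 ± 0.0851 (SE) (edgeR adjusted p = 0.0854). F5 passed the night test in DESeq2 (adjusted p = 0.0429) and without ZT02 replicate 1 in edgeR (0.0428), and the 24 h test without ZT06 replicate 1 (0.0430) or without that library and ZT02 replicate 2 (0.0440). F13b was at 189.7 to 236 CPM at night and 205 to 242 CPM by day, and its log2 difference was -0.16 ± 0.0704 (SE) (edgeR adjusted p = 0.188).

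The 3 fibrinogen chains ran in parallel and were high at ZT22. Their genes lie side by side on chromosome 3, and the chains assemble into one hexamer in the hepatocyte. Fga had, in CPM, at ZT02 4285 and 4527, at ZT06 3468 and 4286, at ZT10 4722 and 4458, at ZT14 3841 and 3677, at ZT18 4024 and 3785, at ZT22 5491 and 6470. Fgb had, in CPM, at ZT02 3878 and 4130, at ZT06 3323 and 4205, at ZT10 4017 and 4182, at ZT14 3786 and 3474, at ZT18 3787 and 3527, at ZT22 4961 and 6072. Fgg had, in CPM, at ZT02 2977 and 3141, at ZT06 2447 and 2808, at ZT10 3288 and 2894, at ZT14 2555 and 2571, at ZT18 2826 and 2628, at ZT22 3762 and 4556. In each gene both ZT22 libraries were above the other 10. The 4 libraries of ZT14 and ZT18 lay below 5 of the 6 day libraries for Fga and Fgb, the exception being ZT06 replicate 1. For Fgg they lay below 4 of the 6, ZT06 being the exception.

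Summed, the chains came to 14210 and 17100 CPM at ZT22, against 9238 to 12030 CPM in the other 10 libraries. The ratio Fga to Fgb stayed between 1.01 and 1.18 and that of Fgg to Fgb between 0.668 and 0.819 in all 12. 6 of the 37 genes (C8a, F7, Fga, Fgb, Fgg and Cpb2) had both ZT22 libraries above all others and 0 had both below, against 1.17% and 1.21% of all tested genes. This pattern was noticed in the values and has no test. In the tests that were run, none of the 3 chains passed in edgeR: the any-time adjusted p was 0.0814 for Fga, 0.134 for Fgb and 0.0673 for Fgg, and each passed that test in DESeq2. The log2 night difference was 0.05 for Fga, 0.08 for Fgb and 0.08 for Fgg (edgeR adjusted p 0.611 to 0.734).

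Other acute-phase genes were high in the same 2 libraries. Over a list of 18 of them, the mean centred log2 CPM was 0.73 and 1.38 at ZT22, against -0.66 to 0.18 in the other 10 libraries, and 11 of the 18 had both ZT22 libraries above the rest. Saa1 (serum amyloid A1) was at 154.6 and 315.8 CPM at ZT22, against 5.76 to 38.0 CPM elsewhere. The neutrophil markers summed to 2.80 and 2.83 CPM at ZT22, against 1.05 to 2.00 CPM elsewhere, and of the 6 listed, Ngp, Camp, Ly6g and Elane were at 0 in at least 1 library. The part of these values in the fibrinogen levels was not tested.

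**Figure D4:**
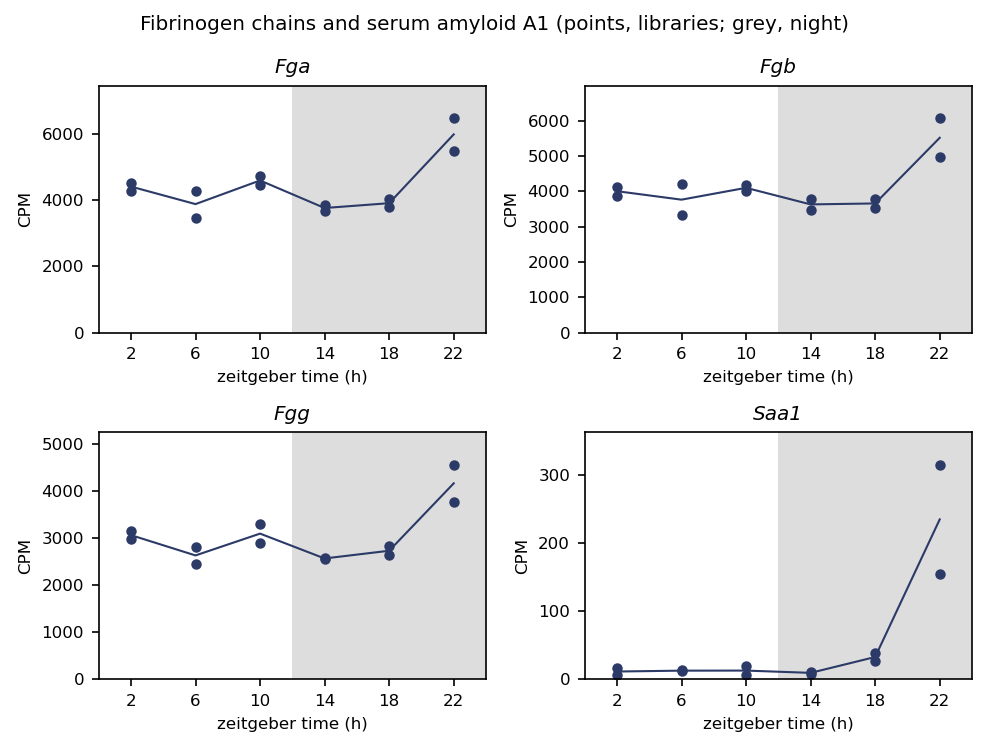
CPM of Fga, Fgb and Fgg against zeitgeber time in hours, and of Saa1 for comparison, with points for libraries, a line through the means of 2 and grey for the night. The ZT22 libraries of each chain lie above its other 10, for Fga at 5491 and 6470 CPM against 3468 to 4722 CPM, and those of Saa1 lie at 154.6 and 315.8 CPM.

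The bases upstream of the 3 chains are shown because all 3 were high at ZT22. They run 5′ to 3′ on each gene's own strand, with capitals for the STAT site TTCNNNGAA, the C/EBP site and the HNF1 half-site, in either direction.
Fga (chr3:83025903-83026075, plus strand): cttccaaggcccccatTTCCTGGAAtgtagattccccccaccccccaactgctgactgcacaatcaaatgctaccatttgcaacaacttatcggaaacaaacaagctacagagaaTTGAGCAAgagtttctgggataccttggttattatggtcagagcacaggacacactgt
Fgb (chr3:83049864-83050113, minus strand): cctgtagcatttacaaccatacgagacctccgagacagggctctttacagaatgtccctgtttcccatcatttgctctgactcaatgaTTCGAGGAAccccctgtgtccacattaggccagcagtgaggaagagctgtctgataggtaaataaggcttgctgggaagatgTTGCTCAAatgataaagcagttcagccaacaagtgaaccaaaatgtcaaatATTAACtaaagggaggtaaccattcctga
Fgg (chr3:83007474-83007723, plus strand): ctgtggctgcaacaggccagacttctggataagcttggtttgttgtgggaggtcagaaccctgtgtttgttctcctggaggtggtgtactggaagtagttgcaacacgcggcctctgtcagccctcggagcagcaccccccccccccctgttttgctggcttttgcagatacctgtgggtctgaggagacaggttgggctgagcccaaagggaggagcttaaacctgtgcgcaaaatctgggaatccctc
Fga has its STAT match at -234 and its C/EBP match at -135 from the RefSeq start, and Fgb at -162 and -80 with an HNF1 match at -29. A further HNF1 match of Fga at -43 lies outside the printed bases, and Fgg held none of the searched motifs. Among the 29 members with a window, 10 held a C/EBP match (34.5%, against 10.8% of all windows) and 8 a STAT match (27.6%, against 8.30%). An HNF1 match was held by 9 (31.0%, against 7.10%) and a TATA box, TATAAA, by 3 (10.3%, against 13.6%). Members were counted per gene and the background per window, over all RefSeq promoters rather than those of liver genes. Enrichment was not tested.

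Of the fibrinolysis genes, Cpb2 varied over the day. Cpb2 (ENSMUSG00000021999, chr14:75242287-75283555, plus strand) encodes the carboxypeptidase also called TAFI, which slows clot lysis by trimming the fibrin ends to which plasminogen binds. Cpb2 had, in CPM, at ZT02 323 and 289, at ZT06 294 and 238, at ZT10 244 and 235, at ZT14 255 and 296, at ZT18 318 and 319.8, at ZT22 348 and 363. Both ZT22 libraries were the highest, and both ZT10 libraries were among the 3 lowest. Its fitted range was 1.44-fold (95% confidence interval 1.27 to 1.64) with the peak at ZT 21.5 ± 0.597 h (SE) (edgeR adjusted p = 0.0128), and it passed under every alternative (adjusted p up to 0.0480). The log2 night difference of 0.23 ± 0.0748 (SE) did not pass (edgeR adjusted p = 0.0801), and the groups overlapped through the ZT02 libraries and ZT06 replicate 1.

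Plg, the precursor of plasmin, was at 1913 to 2201 CPM at night and 1843 to 2202 CPM by day and averaged 1998 ± 105 CPM at night and 1988 ± 162 CPM by day (SD, n = 6 each) (24 h edgeR adjusted p = 0.760). Serpinf2, the inhibitor of plasmin, was at 600.3 to 897 CPM at night and 587 to 940.4 CPM by day, with a range of 1.40-fold (95% confidence interval 1.12 to 1.75) and a peak at ZT 1.19 ± 1.11 h (SE) that did not pass (edgeR adjusted p = 0.0674). Serpinf2 passed the 24 h test in DESeq2 (adjusted p = 0.0154). Its 2 highest libraries were ZT02 replicate 2 and ZT06 replicate 2.

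The thrombin inhibitors and Vtn passed no test in edgeR with all 12 libraries. Serpinc1, antithrombin, had, in CPM, at ZT02 1902 and 1703, at ZT06 2011 and 1728, at ZT10 1733 and 1720, at ZT14 1841 and 1708, at ZT18 1706 and 1687, at ZT22 1735 and 1743. The 2 highest libraries were ZT06 replicate 1 and ZT02 replicate 1, and the other 10 lay between 1687 and 1841 CPM. Its fitted range was 1.07-fold (95% confidence interval 0.969 to 1.18) (edgeR adjusted p = 0.717). Serpind1, heparin cofactor II, was at 451 to 576 CPM at night and 440.4 to 574 CPM by day (edgeR adjusted p = 0.152). Without ZT10 replicate 1 Serpind1 passed the 24 h test (adjusted p = 0.0297). Vtn, which binds both the plasminogen activator inhibitor PAI-1 and the terminal complement complex, was at 1863 to 2266 CPM at night and 1698 to 2144 CPM by day (edgeR adjusted p = 0.632).

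Set against each other, more complement than coagulation genes had a positive night-minus-day difference. The difference was positive in 12 of 16 complement genes, 9 of 21 coagulation genes and 8785 of 17142 tested genes. The 12 count C2 and Cfb separately, though their rows may share reads. They also include Masp1 and Serping1, whose signs turned under some alternatives. Over the alternatives the difference was positive in 10 to 13 complement and 8 to 10 coagulation genes. The median difference was 0.09 (log2) for complement, -0.04 for coagulation, 0.01 for all tested genes and -0.04 for genes of at least 100 CPM. Fitted peaks fell between ZT12 and ZT24 for 12 of 16 complement and 8 of 21 coagulation genes, whether or not they passed. The same held for 8793 of 17142 tested genes and for 572 of the 1367 genes of at least 100 CPM. The median fitted range was 1.21-fold for complement, 1.19-fold for coagulation and 1.31-fold for all tested genes. The passing genes were few in both sets: C8b and C9 higher at night and Mbl2 lower in complement, and 0 higher and Klkb1 lower in coagulation. Beside that 0 in edgeR, 1 coagulation gene was higher at night with an unadjusted p under 0.05, as were 2310 of 17142 tested genes. Of the coagulation genes, 0 passed as higher at night in DESeq2 or limma-voom. In edgeR Cpb2 passed as higher at night with library totals only (adjusted p = 0.0304) and without ZT06 replicate 1 (0.0430). By library, the mean centred log2 CPM of complement minus that of coagulation was -0.02 to 0.15 at night and -0.16 to 0.09 by day, and the overlap came from ZT10 replicate 1. The 4 members called in the night test were 2 (C8b and Mbl2) without any 1 library of ZT18 or ZT22 or replicate 1 of ZT14.

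**Figure D5:**
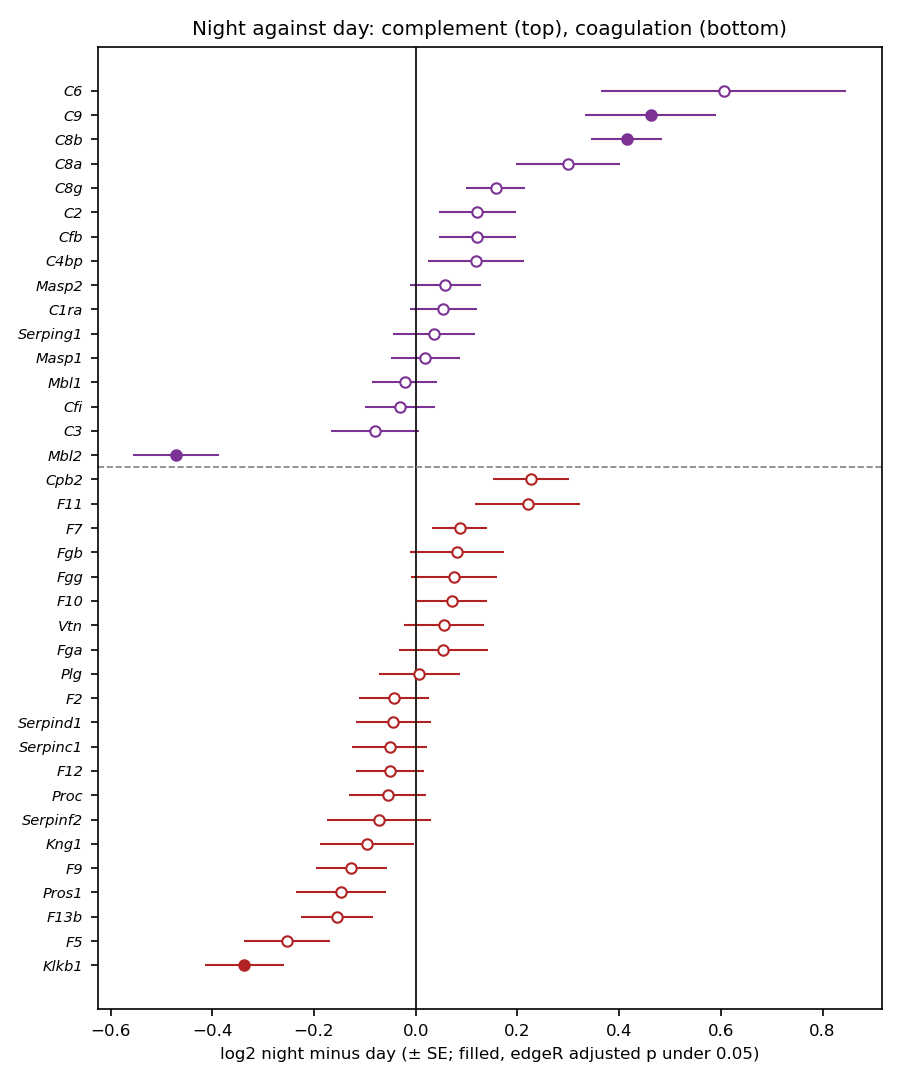
Night-minus-day log2 difference of each of the 37 genes with its standard error, sorted within the complement and coagulation sets. C8b and C9 pass on the higher side and Mbl2 and Klkb1 on the lower side, and the medians of the sets are 0.09 and -0.04.

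Late night against late day, ZT22 against ZT10, gave no call among the 37. The contrast passed for 0 members in edgeR, for 4 in DESeq2 (C8b, F11, F7 and Cpb2) and for 0 in limma-voom. In edgeR 14 members had an unadjusted p under 0.05, and 12 of these were higher at ZT22. Of 17142 tested genes 3173 had one, and 1488 of these were higher at ZT22. The contrast passed for 40 of all tested genes (0.233%), with 0.140% higher and 0.0933% lower at ZT22, from 2 libraries a time. The log2 difference was 0.73 for F11 (adjusted p = 0.0915), 0.57 for Cpb2 (0.0831), 0.48 for C8b (0.0955) and 0.39 for F7 (0.0906). C4bp had 0.52 and Mbl2 -0.45, with adjusted p of 0.144 and 0.150. The difference was positive in 13 of 16 complement genes (median 0.15) and in 14 of 21 coagulation genes (median 0.11), and in 8610 of 17142 tested genes.

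The rest of the cascades was read from lists of other genes. Of 30 other complement genes listed, 26 were tested and 3 passed the 24 h test (11.5%). This is near the 12.0% of all tested genes. Hc, which encodes C5, the substrate from which the terminal pathway starts, averaged 1509 ± 248 CPM at night and 1195 ± 153 CPM by day (SD, n = 6 each). Its 4 highest libraries were those of ZT18 and ZT22, as for C8b, its log2 night difference was 0.32 (edgeR adjusted p = 0.0420) and its 24 h adjusted p was 0.0206. C4b (24 h adjusted p = 0.0286) and C1rl (0.0413) passed the 24 h test and not the night test. Of 23 other coagulation and fibrinolysis genes, 21 were tested and 1 passed (4.76%), Serpina10, the protein Z-dependent inhibitor of factor Xa. Serpina10 averaged 219 ± 68.5 CPM at night and 157 ± 21.3 CPM by day (SD, n = 6 each). Its edgeR adjusted p was 0.0357 in the night test and 0.0401 in the 24 h test. Of 8 genes for the vitamin K cycle and the export of clotting factors, 0 passed either test in edgeR. In the 24 h test 3 of them had an unadjusted p under 0.05, as did 5407 of 17142 tested genes. There 0 of the 8 passed in DESeq2 or limma-voom. In the night test 4 of the 8 had one, all higher at night, as did 2310 of the tested genes in that direction. Of the 8, 1 passed the night test in DESeq2 and 0 in limma-voom. The most abundant of these were Lman1, the cargo receptor for factors V and VIII, at 359 CPM and Surf4 at 269.5 CPM.

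Other lists were read beside these. Of the 18 acute-phase genes, 6 passed the 24 h test (33.3%, against 12.0% of all tested genes). The night test passed for 4, all higher at night, against 4.80% of all tested genes in that direction. These 4 were Saa4, Orm1, Saa1 and Saa2, with 24 h edgeR adjusted p of 0.00750, 0.0154, 0.0172 and 0.0228. Of 20 other secreted plasma proteins, 2 passed the 24 h test, Serpina6 (2.25-fold range, adjusted p = 0.00717) and Apoh (1.35-fold, 0.0271), and 2 were lower at night. Of 16 hepatocyte transcription factors, 4 passed the 24 h test (25.0%): Dbp (adjusted p = 0.00566), Hnf4a (0.0149), Foxa3 (0.0241) and Nr1h4 (0.0465), all by edgeR. Dbp was lower and Foxa3 higher at night.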

How the data were processed

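Total liver RNA was depleted of rRNA, and paired-end sequencing libraries that keep strand were made from it, per the labels' protocols. What the authors deposited is 1 table of whole-number exon counts for 12 libraries and 22618 genes, with no scaling. Per the submitters' processing notes, STAR 2.4.0i and mm10 were used. The counting tool, its strand setting and its gene annotation are not given in the sources used here. Reads were not treated as molecules, so counts carry amplification noise beside counting error.

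Library totals ran from 34715506 to 46074052. Counts were scaled with TMM factors to CPM and tested with edgeR 4.0.16 in R 4.3.3 (filterByExpr at its defaults, a count of 10 and a total of 15, quasi-likelihood test, Benjamini-Hochberg adjustment over all 17142 tested genes, threshold 0.05). A 24 h cosine and sine term gave the 24 h test, and a fit with 6 time-point groups gave the any-time test, night minus day and ZT22 minus ZT10. The fitted 24 h range and peak came from least squares on log2 CPM (prior count 2, 9 residual degrees of freedom, 95% confidence interval). The labels do not say whether the same replicate number marks a shared batch. Deviations of same-numbered libraries from their time-point means correlated at -0.362 to 0.661 over 15 pairs of times, 4 of them above 0.1. This range does not settle whether some libraries are paired. The main tests ignored the number, and a replicate block was run as an alternative. Replicates of a time differed by far more than counting error (chi-square per degree of freedom 15.5 to 92.2). Levels per kilobase used exon unions of GENCODE M21, and promoter windows are RefSeq (GRCm38.p6), matched for 29 of 37 genes. Of the fits used here, only the main edgeR fit was tested on simulated data. There, planted 1.5-fold changes were recovered at 15.2% (24 h), 1.54% (any time), 52.3% (night minus day) and 4.48% (ZT22 minus ZT10). False calls were 4 of 108, 11 of 80, 7 of 158 and 9 of 102 calls, in that order. A gene that passed no test may therefore still vary over the day.

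Alternatives were DESeq2 1.42.0, limma-voom (limma 3.58.1), RLE factors, library totals only, no filter, a replicate block, each library left out, 2 pairs of ZT02 and ZT06 libraries left out together, the longest transcript for levels per kilobase, and a prior count of 0.5 for the fitted range. The members, gene lists, named-gene rule and these pairs were chosen with earlier results of these data known. The set of genes with at least 100 CPM, the comparison of ZT22 with the other 10 libraries and the subtraction of Cfb from C2 were added after the values were seen. Every member is named, and counts in every library are given for members that passed a test, Fga, Fgb, Fgg, C3, Serpinc1, the 5 widest 24 h ranges and the 2 highest and 2 lowest levels, and C8a, C8g and F7 were added for their values.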

Additional observations from a re-analysis of the deposited data

Results flagged for a closer look

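A library was set apart where its gap to the next was above Dixon's critical share of the range of its 6 night or 6 day libraries. Of 74 such groups, 7 had one. The critical share is set for about 1 in 20 among independent groups of like libraries. Here each group pools different times and the genes share libraries, so the 7 cannot be set against chance. 3 of the 7 were ZT22 replicate 2, the highest of the night libraries for Serping1 (621 CPM, the next 542), Plg (2201 CPM, the next 2012) and Vtn (2266 CPM, the next 1981). ZT14 replicate 1 was the highest night library for Serpinc1 (1841 CPM, the next 1743). Among day libraries, ZT06 replicate 1 was the lowest for Fga (3468 CPM, the next 4285) and for Fgb (3323 CPM, the next 3878), and ZT10 replicate 1 the lowest for F13b (205 CPM, the next 229). None of these 7 genes passed a test in edgeR, and the part of these libraries in their values was not tested.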

How the results depend on the processing

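With DESeq2 the 24 h test passed for 3343 genes and 11 members, any time for 2484 and 10, and ZT22 minus ZT10 for 562 and 4. Without ZT02 replicate 1 and ZT06 replicate 2 the counts were 568 genes and 3 members (24 h), 0 members (any time), 1107 and 2 (night minus day) and 215 and 1 (ZT22 minus ZT10). Without ZT02 replicate 2 and ZT06 replicate 1 they were 1276 genes (24 h), 0 members (any time), 865 genes (night minus day) and 216 and 1 (ZT22 minus ZT10). The 1 member in both was Cpb2. Library totals only left 1 member in the any-time test. The replicate block also left 1 member there, C8b, and ended both C9 calls (adjusted p 0.0592 and 0.0605). Totals only put 1077 genes higher and 624 lower at night, against 823 and 839, and shifted the median of all genes to 0.04.

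Leaving out 1 library each gave 1201 to 2225 genes and 3 to 9 members (24 h), 174 to 897 and 0 to 2 (any time), 611 to 1818 and 2 to 4 (night minus day), and 2 to 72 and 0 (ZT22 minus ZT10). The median night difference was then 0.0644 to 0.0992 for complement and -0.0637 to -0.0121 for coagulation. The sign of the night difference turned for 6 genes near 0 that passed no test: Masp1 (-0.0007 with no filter, -0.0227 to 0.0656 without 1 library), Mbl1 (0.0094 with totals only, 0.0112 without ZT02 replicate 2 and ZT06 replicate 1, -0.0563 to 0.0122 without 1 library), Plg (-0.0109 with no filter, -0.0300 to 0.0462), and without 1 library Serpind1 (-0.1005 to 0.0156), Serpinf2 (-0.1441 to 0.0103) and Serping1 (-0.0121 to 0.0884). The cause was not tested. With Vtn counted as complement the medians were 0.06 and -0.05. With 2 libraries a time, the number of libraries rather than counting depth limits these comparisons.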
